A study of Mus musculus with 24 samples.

Results

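The 6 wild-type libraries, 3 from females and 3 from males, are 6 of the 24 libraries of a study of striatal neurons in a mouse model of Huntington's disease. They were taken by the genotype given in the labels, and all 147020 peaks of the study's combined peak set are described in them. The study crossed mice carrying Q140, a knock-in allele of the huntingtin gene, with mice lacking Msh3, a mismatch repair gene, which gave 4 genotypes of 6 animals. The wild-type animals carried neither allele, had a C57BL/6 background and were 12 months old, an age and background that the females and males shared. Nuclei from frozen striatum were stained for NeuN, a protein of most neuronal nuclei, and sorted, and 50000 nuclei per sample went into ATAC-seq, an assay that lets the Tn5 transposase insert sequencing adapters into open DNA. The sort takes neurons of every kind, so each library is a mixture of striatal neuron types, in which fewer nuclei of a type and less open DNA per nucleus cannot be told apart. The labels name no litter or dissection batch. They call the libraries replicates and give no animal identity beyond a short sample code, so p-values measure the spread between these libraries.

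Most neurons of the striatum are GABAergic spiny projection neurons. Those of the direct pathway carry the dopamine receptor Drd1, and those of the indirect pathway carry Drd2. Both express Ppp1r1b, the phosphatase inhibitor DARPP-32, the phosphodiesterase Pde10a, and the transcription factors Bcl11b and Foxp1. Open chromatin is DNA that nucleosomes leave accessible, at gene starts and at distal elements such as enhancers, and gene starts rich in CG pairs are open in most cell types whether or not the gene is highly expressed.

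The 3 female libraries held 8715041, 6725528 and 9263371 counts in peaks, and the 3 male libraries held 5128118, 6920296 and 8893485. The median peak had 26 counts per library, 146878 peaks had at least 1 count in all 6 libraries, and no peak was at 0 in all of them. Across peaks, the Pearson correlation of log2 CPM between pairs of libraries was 0.900 to 0.934, a description over peaks that share libraries. Every pair differed by more than sampling noise, with a chi-square of 1.59 to 3.39 per peak. The common biological coefficient of variation, the spread between animals beyond counting error, was 14.0%. The first principal component held 27.0% of the variance and set female 3 at -121 apart from the other 5 libraries, at -18.6 to 63.0, and the results that rest on female 3 are given below with and without it. Levels are CPM, that is counts scaled to a common library size with edgeR's TMM factors, given per kb of peak width, and SDs are over the 6 animals.

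The promoter windows below are shown because their genes mark these neurons or other cells of the brain and because they span few to many CG pairs. Each runs from 250 bases before to 50 after the start in RefSeq's annotation of GRCm38.p6, 5′ to 3′ on the strand of the gene, with CG pairs in capitals. The first 5 overlapped a peak. Gng7, a G protein gamma subunit of striatal neurons, lies at chr10:81001316-81001615 on the minus strand, with 6 CG pairs. Drd1 lies at chr13:54054731-54055030 on the minus strand, with 6. Pde10a lies at chr17:8801495-8801794 on the plus strand, with 23. Foxp1 lies at chr6:99028249-99028548 on the minus strand, with 44. Drd2 lies at chr9:49340153-49340452 on the plus strand, with 23. The windows of Slc17a7, a vesicular glutamate transporter of cortical neurons, of Gfap, an astrocyte filament protein, and of Cx3cr1, a microglial receptor, overlapped no peak. They lie at chr7:45163671-45163970 on the plus strand, chr11:102897151-102897450 on the minus strand and chr9:120068247-120068546 on the minus strand, with 13, 3 and 5 CG pairs. Some windows not shown went the other way. Those of the marker Bcl11b and of the pan-neuronal gene Rbfox3 overlapped no peak. Both genes had a promoter-class peak elsewhere, at 28.9 and 21.8 CPM per kb. The window of the oligodendrocyte gene Mog overlapped a peak of 6.16 CPM per kb.
Gng7: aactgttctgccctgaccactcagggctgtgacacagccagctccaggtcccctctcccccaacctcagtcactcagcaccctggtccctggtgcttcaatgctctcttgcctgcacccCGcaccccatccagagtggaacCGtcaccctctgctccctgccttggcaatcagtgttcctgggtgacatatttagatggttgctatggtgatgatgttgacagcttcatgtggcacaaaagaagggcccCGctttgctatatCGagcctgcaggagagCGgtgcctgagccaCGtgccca
Drd1: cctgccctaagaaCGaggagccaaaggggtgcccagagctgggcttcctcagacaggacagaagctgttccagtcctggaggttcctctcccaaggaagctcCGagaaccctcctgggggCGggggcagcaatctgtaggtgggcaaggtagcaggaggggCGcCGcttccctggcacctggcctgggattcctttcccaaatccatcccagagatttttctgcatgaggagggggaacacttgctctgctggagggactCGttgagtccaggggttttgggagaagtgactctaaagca
Pde10a: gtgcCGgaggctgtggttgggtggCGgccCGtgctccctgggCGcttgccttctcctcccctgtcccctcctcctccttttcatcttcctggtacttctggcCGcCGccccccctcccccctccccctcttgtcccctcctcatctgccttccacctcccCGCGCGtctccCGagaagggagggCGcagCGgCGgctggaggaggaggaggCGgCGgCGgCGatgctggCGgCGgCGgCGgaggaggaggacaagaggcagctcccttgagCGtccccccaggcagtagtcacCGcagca
Foxp1: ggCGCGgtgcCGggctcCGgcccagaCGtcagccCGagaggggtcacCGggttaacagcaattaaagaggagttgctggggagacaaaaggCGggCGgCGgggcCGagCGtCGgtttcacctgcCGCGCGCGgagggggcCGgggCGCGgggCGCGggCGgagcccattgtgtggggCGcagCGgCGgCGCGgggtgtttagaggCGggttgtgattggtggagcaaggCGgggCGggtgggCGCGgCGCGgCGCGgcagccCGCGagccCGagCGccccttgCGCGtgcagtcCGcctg
Drd2: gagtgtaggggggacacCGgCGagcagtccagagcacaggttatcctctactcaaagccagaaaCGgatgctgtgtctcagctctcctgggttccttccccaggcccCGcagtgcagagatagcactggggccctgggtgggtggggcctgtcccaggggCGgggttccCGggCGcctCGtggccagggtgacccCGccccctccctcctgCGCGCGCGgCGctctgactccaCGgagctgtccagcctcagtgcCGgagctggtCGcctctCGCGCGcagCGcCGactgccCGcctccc
Slc17a7: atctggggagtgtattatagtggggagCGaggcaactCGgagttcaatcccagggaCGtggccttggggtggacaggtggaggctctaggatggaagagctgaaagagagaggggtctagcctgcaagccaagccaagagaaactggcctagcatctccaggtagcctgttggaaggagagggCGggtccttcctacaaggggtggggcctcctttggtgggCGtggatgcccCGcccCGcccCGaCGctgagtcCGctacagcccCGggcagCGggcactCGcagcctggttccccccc
Gfap: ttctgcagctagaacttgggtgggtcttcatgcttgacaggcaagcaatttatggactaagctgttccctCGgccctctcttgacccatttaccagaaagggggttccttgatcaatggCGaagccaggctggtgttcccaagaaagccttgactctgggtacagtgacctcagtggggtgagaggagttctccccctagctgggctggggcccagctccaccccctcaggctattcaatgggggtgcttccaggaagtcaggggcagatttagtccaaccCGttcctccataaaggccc
Cx3cr1: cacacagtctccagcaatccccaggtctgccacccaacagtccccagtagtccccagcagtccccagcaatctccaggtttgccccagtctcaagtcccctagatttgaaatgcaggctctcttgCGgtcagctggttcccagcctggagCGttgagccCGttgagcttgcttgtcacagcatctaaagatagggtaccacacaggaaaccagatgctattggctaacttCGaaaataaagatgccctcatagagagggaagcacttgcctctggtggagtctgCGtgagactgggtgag

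The peaks over these open windows differed widely in level. The peak at the Gng7 start had 77.4 ± 16.2 CPM per kb (SD, n = 6), that at Pde10a 30.3 ± 5.04, that at Drd1 25.8 ± 3.97, that at Foxp1 19.1 ± 2.25 and that at Drd2 10.1 ± 0.624. Thus the Gng7 start, with 6 CG pairs, was the most open of the 5, and Foxp1 and Drd2, with 44 and 23, were the least open.

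Of the 6 marker genes of these cells, Ppp1r1b had the highest promoter peak and Drd2 the lowest. The Ppp1r1b promoter peak at chr11:98347673-98349008 had 48.9, 61.8 and 77.3 CPM per kb in the 3 females and 63.5, 53.8 and 60.5 in the 3 males. Its mean of 61.0 ± 9.70 lay at the 99.2 percentile of the 9369 genes that had a peak in the authors' promoter class. All 5 peaks assigned to Ppp1r1b were above the 90th percentile of all peaks, which was 18.2 CPM per kb. The Pde10a promoter peak at chr17:8800595-8802050 had 27.1, 28.0 and 38.5 CPM per kb in females and 28.8, 25.1 and 34.3 in males, at the 84.5 percentile. Of the 88 peaks of Pde10a, 37 were above the 90th percentile of all peaks. The highest, an intron peak at chr17:8729334-8730349 and 71.9 kb from the assigned start, had 49.2 ± 7.17 CPM per kb. The Bcl11b promoter peak at chr12:108003840-108004401 had 28.9 ± 3.12, at the 82.3 percentile. An intron peak at chr12:107969726-107970379 in the same gene was higher, at 38.9 ± 5.56.

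The Drd1 promoter peak at chr13:54054700-54056011 had 22.8, 24.3 and 33.6 CPM per kb in females and 23.5, 24.6 and 26.1 in males, at the 76.6 percentile. An intergenic peak 24.0 kb from its start had 31.5 ± 3.76. The Foxp1 promoter peak at chr6:99027762-99028944 had 21.9, 19.4 and 18.4 in females and 15.6, 18.3 and 21.1 in males, at the 58.8 percentile. Foxp1 held 110 peaks, of which 21 were above the 90th percentile of all peaks. The Drd2 promoter peak at chr9:49339993-49340675 had 10.05, 9.30 and 9.54 in females and 10.5, 10.9 and 10.6 in males, at the 25.1 percentile. None of the 10 peaks of Drd2 was above the 90th percentile of all peaks, and the highest had 13.9. In the order of levels, Pde10a, Bcl11b and Drd1 differed from their neighbours by less than 1 SD. Ppp1r1b stood above Pde10a, Foxp1 below Drd1 and Drd2 below Foxp1 with no overlap between the 6 animals' values. Females and males overlapped at the promoter peaks of Ppp1r1b, Pde10a, Bcl11b, Drd1 and Foxp1. They did not at Drd2, where every female was below every male, and edgeR's test of sex across all peaks did not call that peak. The highest female there, at 10.05, was close to the lowest male, at 10.5. The share of all peaks that separate 3 females from 3 males was not counted, so this is not read as a sex difference. Summed over all its peaks, each marker but Drd2 was highest in female 3.

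By annotation class, promoter peaks were few and held a large share of the counts. The authors' classes give each peak its place in a gene, and the promoter class lies around the transcription start. It held 10177 peaks, 6.92% of the set and 12.6% of its bases. These peaks took 20.4%, 19.2% and 21.6% of the counts in females and 19.6%, 18.4% and 21.2% in males. Introns held 69277 peaks, 47.1% of the set, with 36.9% ± 0.793 of the counts (SD, n = 6). Intergenic DNA held 54810 peaks, 37.3% of the set, with 32.6%, 31.8% and 28.96% of the counts in females and 32.7%, 32.7% and 29.97% in males. Exons took 4.36% ± 0.170, the 5′ UTR class 3.31% ± 0.203, transcript ends 1.51%, non-coding transcripts 1.47% and the 3′ UTR class 0.935%. The sexes overlapped in the promoter share and in the intergenic share.

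Per kb of peak, the median promoter peak had 16.0 ± 1.04 CPM and the median peak of the 5′ UTR class 14.4 ± 1.01. Transcript ends had 10.2 ± 0.307, exons 9.25 ± 0.679, introns 8.85 ± 0.259 and intergenic peaks 8.31 ± 0.538, against 8.92 ± 0.360 over all peaks. On the log2 scale the median promoter peak was above the median intergenic peak by 0.89, 0.75 and 1.08 in females and by 0.80, 0.61 and 0.96 in males. The mean difference was 0.85 ± 0.17, with p = 0.03125 in an exact two-sided sign-flip permutation test over the 6 animals, the smallest p that 6 animals can give. Among peaks of 300 to 500 bases alone the same difference was 0.11 ± 0.06, and with no division by width it was 2.20 ± 0.18. The median promoter peak was 891 bases wide, against 396 bases for all peaks, so the size of the difference depends on how width is treated.

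**Figure D1:**
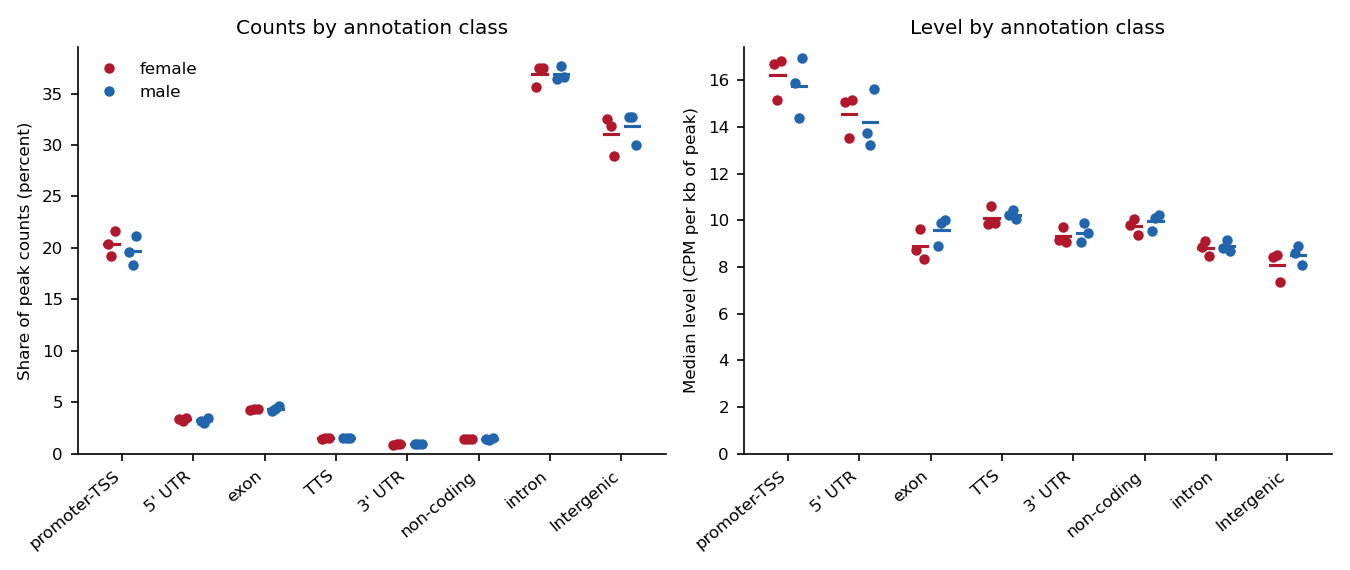
Share of peak counts (left, percent) and median level (right, CPM per kb of peak) by annotation class, with a point for each wild-type animal and a line for the mean of 3 females or 3 males. Promoter peaks had the highest median level, 16.0 CPM per kb, and intron peaks the largest share of counts, 36.9%; females and males overlapped in both classes.

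Level was highest at gene starts and fell within the first kilobase. It was somewhat higher again at 1 to 5 kb and fell slowly with distance from there. By the authors' distances, the 6124 peaks within 100 bases of the assigned start had a median of 16.9 ± 1.26 CPM per kb, and the 8119 from there to 500 bases had 14.6 ± 0.918. The 2562 peaks beyond that and up to 1000 bases had 9.84 ± 0.356, and the 10743 at 1 to 5 kb had 10.5 ± 0.210. From 5 to 10 kb the median was 9.07. From 10 to 50 kb, where 51820 peaks held 28.4% ± 0.763 of the counts, the median was 8.61 ± 0.359. From 100 to 500 kb it was 8.13, and the 3759 peaks beyond 500 kb had 7.82 ± 0.738. Within 100 bases the sides of the start did not differ by more than 1 SD, with 17.0 upstream and 16.8 downstream. At 100 to 500 bases the medians were 15.6 upstream and 14.3 downstream. The distances within 500 bases held 11.4% ± 0.751 and 15.5% ± 0.932 of all counts. Peak width fell as well. The median peak was 894 bases wide within 100 bases of the start, 1011 at 100 to 500 bases and 418.5 from there to 1000 bases. The part of width in the fall of level within the first kilobase was not tested.

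The number of CG pairs in a promoter window went with whether the window was open. Of the 32851 RefSeq windows of 300 bases, 15612, or 47.5%, overlapped a peak. Among the 7656 windows with 0 to 2 CG pairs, 5.97% did, and among the 4260 with 6 to 9 it was 35.0%. Among the 2677 windows with 15 to 19 CG pairs 87.3% were open, and among the 3837 with 30 to 67 it was 96.8%. The level of the overlapping peaks had a smaller range, with medians of 9.51 CPM per kb at 0 to 2 pairs, 15.04 at 10 to 14, 19.6 ± 1.66 at 20 to 29 and 18.6 ± 1.46 at 30 to 67. Of the open windows, 64.5% lay over a peak of the promoter class, 11.6% over an intron peak, 9.15% over a 5′ UTR peak and 6.78% over an exon peak. The promoter class thus does not hold every open start, and gene lists are given below both by class and by window.

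**Figure D2:**
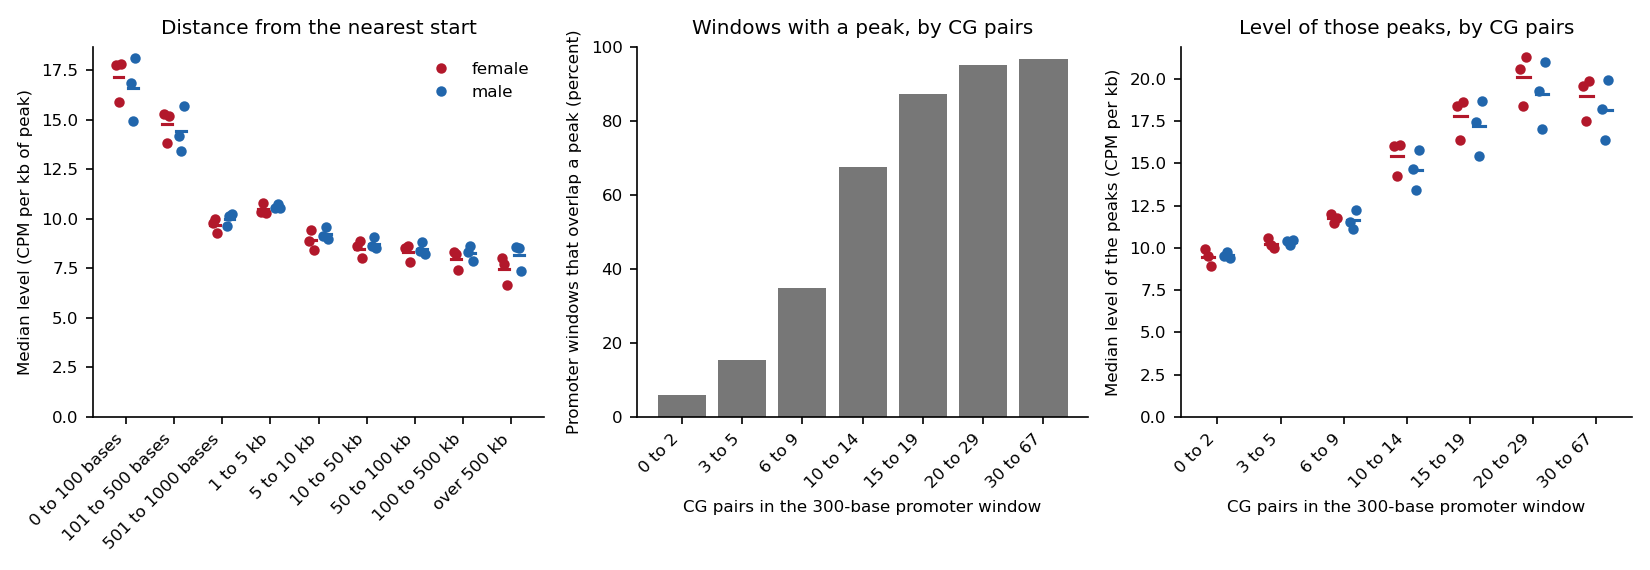
Median level by distance from the nearest start (left, CPM per kb), percent of promoter windows that overlap a peak by the number of CG pairs (middle, bars from 0), and median level of those peaks (right, CPM per kb), with a point per animal and lines for the mean of 3 females or 3 males. Level was 16.9 within 100 bases and 7.82 beyond 500 kb, and the open share was 5.97% at 0 to 2 CG pairs and 96.8% at 30 to 67.

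Short motifs were searched on both strands of the windows, and none of the motifs contains another. Values are the median level of the peaks over windows with 15 to 29 CG pairs, so that windows of similar CG number are compared. CCAATCA, the core bound by NF-Y, was in 7.82% of all windows. Windows with it had 25.9 CPM per kb and windows without it 18.1, and those with it were higher in 6 of 6 animals. NRF1's GCGCATGC, in 2.71% of windows, had 21.1 with and 18.7 without. The cAMP response element TGACGTCA, in 1.79%, had 20.8 with and 18.9 without, and the ETS motif CCGGAAG, in 8.86%, had 20.1 with and 18.6 without. GGGCGGG, read by the SP and KLF families and found in 25.6%, had 19.4 with and 18.5 without. For all 4 of these, windows with the motif were higher in 6 of 6 animals. Windows with TATAAA, in 13.6%, had 17.5 against 19.0 without, and windows with the E box CAGCTG, in 16.3%, had 18.0 against 19.1, lower in 6 of 6 animals each. The AP-1 motif TGAGTCA, in 5.20%, had 18.6 with and 18.9 without. The same windows were read in every animal, so 6 of 6 animals repeats 1 comparison of windows. CG number also varied within the range compared, with medians of 17.5 CPM per kb at 15 to 19 pairs and 19.6 at 20 to 29. A match describes letters in the window and not binding.

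Genes of projection neuron identity had high promoter peaks, and markers of other brain cells that had one mostly had low ones. Over all 9369 genes with a promoter-class peak, 44.8% of the 20897 genes with any peak, the median level was 16.7 CPM per kb. Of 20 identity genes, 16 had such a peak, with a median of 28.5 and a range of 10.6 to 77.4. The highest were Gng7 at 77.4, Ppp1r1b at 61.0, the G protein regulator Rgs9 at 45.6 ± 9.16 and Gnal, the olfactory-type G protein alpha subunit of striatum, at 42.7 ± 7.28. The lowest were the phosphatase Ptpn5 at 16.5 and the retinoid receptor Rxrg at 10.6. The list's median gene stood at the 80.2, 80.5 and 81.9 percentile of all promoter peaks in females and at the 79.1, 84.3 and 82.0 percentile in males. With no division by width it stood at 68.5 ± 4.77. Among identity genes without a promoter-class peak, Adcy5 held 39 peaks of other classes, Rarb 95 and Actn2 7. By window, 14 of the 16 identity genes in the promoter table were open, against 49.0% of all 27025 genes there, and Bcl11b and Adcy5 were the closed ones. The identity windows had a median of 19.5 CG pairs, against 8 over all genes. Of all windows with 15 to 19 pairs 87.3% were open, and of those with 20 to 29 95.2%, so the identity share was near that of windows of like CG number. Identity genes had a median of 19.5 peaks each, against 4 over all genes. Peak number rose with gene length, as given below, and gene length was not matched here. The identity genes' peaks outside the promoter class had a median of 13.5 ± 0.598 CPM per kb, against 8.71 ± 0.359 over all such peaks.

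Direct pathway genes had promoter peaks in 7 of 9 genes, with a median of 15.8 CPM per kb. Drd1 had 25.8, the transcription factor Ebf1 25.6, the muscarinic receptor Chrm4 24.5 and the factor Isl1 15.8. The lowest were the neuropeptide genes Tac1 at 12.0 and Pdyn at 10.5. Indirect pathway genes had them in 7 of 7, with a median of 11.4. The adenosine receptor Adora2a had 22.0, the enkephalin gene Penk 17.0, the orphan receptor Gpr6 15.3 and the factor Sp9 11.4, and the lowest were Grik3 at 9.47 and Gpr52 at 8.999. In percentile of all promoter peaks, the direct list stood at 46.8 ± 4.75 and the indirect list at 30.3 ± 7.06 (SD, n = 6). Every member of both lists in the promoter table had an open window, 8 of 8 and 4 of 4. Their windows had medians of 25 and 24 CG pairs, and 95.2% of all windows with 20 to 29 pairs were open.

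Pan-neuronal and GABAergic genes had promoter peaks in 9 of 11, with a median of 23.8 CPM per kb. They were led by the tubulin Tubb3 at 30.6, the vesicle protein Syt1 at 27.9, the GABA-making enzyme Gad1 at 25.7 and Snap25 at 24.0, and ended with Syp at 16.2 and Stmn2 at 13.3. Housekeeping genes had them in 6 of 13, with a median of 38.9, led by Gapdh at 54.6, Rpl13a at 52.0, Polr2a at 44.0 and Eef1a1 at 33.7, with Sdha at 19.9 and Tbp at 17.1 the lowest. Activity-regulated genes, which neurons switch on within minutes of firing, had them in 10 of 14, with a median of 34.0. Arc had 67.5 ± 8.51, Egr1 57.3 ± 8.96, Npas4 36.3 and Nr4a3 35.5, and the lowest were Egr2 at 21.7 and Bdnf at 11.4. By window, 8 of the 9 pan-neuronal genes in the promoter table were open, and Rbfox3 was the closed one. The pan-neuronal windows had a median of 17 CG pairs, and 87.3% of all windows with 15 to 19 pairs were open. All 11 activity-regulated genes and all 9 housekeeping genes in the promoter table had open windows. The median CG pairs of the activity-regulated and housekeeping windows were 26 and 22, in the range of 20 to 29 where 95.2% of all windows were open. In percentile of all promoter peaks, the housekeeping list stood at 92.3 ± 0.895, the activity-regulated list at 89.0 ± 2.16 and the pan-neuronal list at 70.1 ± 2.91.

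Markers of other cells mostly had low promoter peaks. Microglial genes had a promoter-class peak in 1 of 13, Tmem119 at 5.72 CPM per kb, and Itgam and Trem2 had no peak of any class. Endothelial and pericyte genes had them in 4 of 12, with Flt1 at 6.14, Pdgfrb at 5.95, Abcc9 at 5.88 and Kdr at 4.07, and Ly6c1 had no peak. Astrocyte genes had them in 4 of 11, with S100b at 8.95, Aldoc at 8.32, Fgfr3 at 7.99 and Aldh1l1 at 7.89. Oligodendrocyte lineage genes had them in 8 of 14, with a median of 9.16. There Cnp at 24.1 and Myrf at 19.7 were above the median of all genes, Mag had 11.4, Sox10 9.71, Olig2 6.43 and Mog 6.16. Cortical glutamatergic genes had them in 4 of 9, among them Rorb at 9.78, Cux2 at 8.31 and Emx1 at 5.87. By window, 1 of 8 microglial genes (Sall1), 5 of 9 each of astrocyte, oligodendrocyte and endothelial genes, and 3 of 8 cortical genes were open, against 49.0% of all genes. Apart from microglia, these counts were near that share or above it. The median CG pairs were 5 for microglial, 6 for astrocyte and oligodendrocyte, 9 for endothelial and 18 for cortical windows. Of all windows, 15.3% with 3 to 5 pairs, 35.0% with 6 to 9 and 87.3% with 15 to 19 were open. Against windows of like CG number, the microglial share was thus near and the cortical share low. The astrocyte, oligodendrocyte and endothelial shares, 55.6% each, were above the 35.0% of windows with 6 to 9 pairs. How far nuclei of these types entered the sort was not tested. Striatal interneuron genes, whose cells are rare but pass the NeuN sort, had them in 7 of 14, with a median of 7.31. The acetylcholine transporter Slc18a3 had 10.6, the calcium-binding Calb2 9.76, Th 7.51 and the factor Lhx6 7.31, with Npy at 6.57 and Lhx8 at 5.90. By window, 7 of 13 interneuron genes were open, at a median of 13 CG pairs. Of all windows with 10 to 14 pairs, 67.7% were open.

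Hox and olfactory receptor genes were seldom open. The share of other developmental regulators was nearer to that of all genes, but below that of windows of like CG number. Hox genes, which pattern the body axis and the hindbrain and spinal cord, had a promoter-class peak in 7 of 31, between 3.99 at Hoxb9 and 7.74 at Hoxd13. Other developmental regulators had them in 12 of 32, with a median of 7.76. Six3, a factor of forebrain and of striatal development, had 27.2 and Onecut2 22.7, and the lowest were Pax6 at 5.54 and Tbx20 at 5.39. Olfactory and vomeronasal receptor genes had a promoter-class peak in 9 of 1315. By window, 5 of 22 Hox genes, 8 of 21 other regulators and 4 of 1265 receptor genes, 0.316%, were open, against 49.0% of all genes. The median CG pairs of these windows were 17.5, 23 and 1. Of all windows, 87.3% with 15 to 19 pairs, 95.2% with 20 to 29 and 5.97% with 0 to 2 were open. By class, 44.8% of all genes had a promoter peak.

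**Figure D3:**
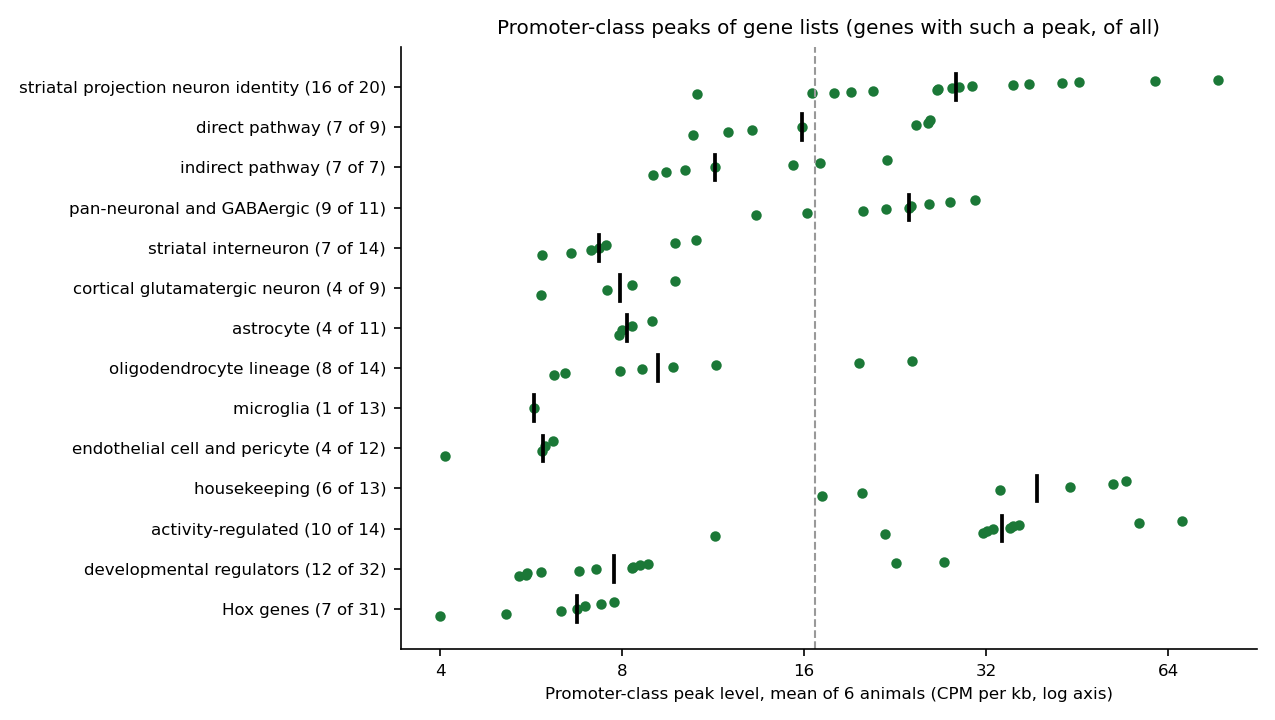
Level of the promoter-class peak (CPM per kb, mean of 6 animals, log axis) of each gene of each list that has such a peak, with a bar at the list's median and a dashed line at the median of all 9369 genes, 16.7. Medians ran from 5.72 for microglia, with 1 gene of 13, to 38.9 for housekeeping genes, and projection neuron identity genes stood at 28.5.

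Peaks were spread unevenly over genes. The median gene had 4 peaks, 4154 genes had 1, and the 174 genes with at least 50 held 8.10% of all peaks. Those 174 had a median length of 297 kb, against 18.2 kb over all genes with a length. Across the 20599 genes with a length, Spearman's rho of peaks per gene with length was 0.35, a description over genes that share libraries. The genes with most peaks were Celf2 with 197, Rbfox1 with 186, Dlg2 with 182, Anks1b with 156, Nrxn3 with 134, Lrrc4c with 117, Ntm with 116, Ank3 with 114, Brinp3 with 111 and Foxp1 with 110. Several encode RNA-binding or synaptic proteins of neurons: Celf2 and Rbfox1 regulate splicing, Dlg2 is a postsynaptic scaffold, and Nrxn3 is a presynaptic adhesion protein. The level of a gene's promoter peak was not tied to its number of peaks, with a rho of -0.09 over the 9369 genes.

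The highest levels of all were at a few peaks, most of them over repeats. The 10 peaks with most counts held 4.53% ± 0.831 of all counts, between 3.61% in female 3 and 6.05% in female 1, and the 14702 peaks with most held 46.0% ± 1.93. The highest level was at chr7:90441718-90442191, in the promoter class of Crebzf, with 16603 ± 3190 CPM per kb. This peak lay 0.827 kb from the assigned start and held 7870 CPM of the Crebzf sum given below. The promoter window of Crebzf lay under another peak, at chr7:90442474-90444033, which had 13.45 to 18.42 CPM per kb over the 6 animals. The high value is thus not the level at the Crebzf start itself. A major satellite repeat (GSAT) at chr2:98666202-98667389, 1199 kb from the start of Lrrc4c, had 4779 ± 887, and a SYNREP satellite beside it had 1869. An intergenic peak near Col19a1 at chr1:24611579-24616147 had 6368, 2192 and 1894 CPM per kb in females and 2782, 1906 and 2306 in males. A run of C near Ddhd1 had 2447 ± 289, and 4 GSAT peaks near Mir101c had 1518 to 1715, with a further GSAT peak near 4933422A05Rik at 1574. The gene symbols at these distal peaks are the nearest ones. By summed CPM over all peaks of a gene, Mir101c led with 13575, then Col19a1 with 13350, Lrrc4c with 8345, Crebzf with 7893, the ribosomal RNA gene Rn45s with 7890, Rn4.5s with 3209, Gm5458 with 2851, 2700054A10Rik with 1613, Gad2 with 1377 and Celf2 with 1079. Celf2 is the one of the 10 whose sum came from many peaks of ordinary level, the highest of its 197 being 37.0 CPM per kb. In the Gad2 sum, intergenic peaks 33.0 and 34.4 kb from the start held 905 and 428 CPM. The Gad2 promoter peak had 20.0 ± 2.00 CPM per kb, at the 61.7 percentile of promoter peaks.

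Of the repeat families, L1 elements, a family of retrotransposons, had 12916 peaks and held 4.32%, 4.45% and 3.305% of the counts in females and 5.08%, 5.10% and 4.03% in males. Satellite peaks, 446 in number, held 3.04%, 3.13% and 1.90% in females and 3.47%, 3.10% and 2.27% in males. Simple repeats held 1.95% ± 0.270 in 2746 peaks. Female 3 was lowest and male 3 second lowest for satellites, and for L1 female 3 was lowest, with males 1 and 2 highest. CpG islands outside promoters held 4.07% ± 0.179 in 2653 peaks at a median of 12.6 CPM per kb. The 111393 peaks with no repeat or island annotation held 79.5%.

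Among the 7 groups of peaks in the plot of departures by animal, L1 elements spread most and introns least. As the median log2 difference of an animal from the mean of the other 5, L1 peaks were at 0.06, 0.05 and -0.50 in females and at 0.27, 0.24 and -0.10 in males. ERVK peaks, of an endogenous retrovirus family, were at 0.04, 0.04 and -0.32 in females and at 0.17, 0.17 and -0.06 in males. Promoter peaks were at 0.09, -0.07 and 0.10 in females and at -0.01, -0.18 and 0.11 in males. Projection neuron identity genes were at -0.08, -0.04 and 0.18 in females and at -0.01, -0.06 and 0.03 in males, and pan-neuronal genes stayed between -0.05 and 0.06. Female 3 was the lowest animal for L1, ERVK, satellite and intergenic peaks and the highest for identity genes. In the same animal Hox peaks were at -0.45 and olfactory receptor peaks at -0.50, while astrocyte genes were at -0.10 and microglial genes at -0.14. The part of cell makeup or tissue quality in this was not tested.

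**Figure D4:**
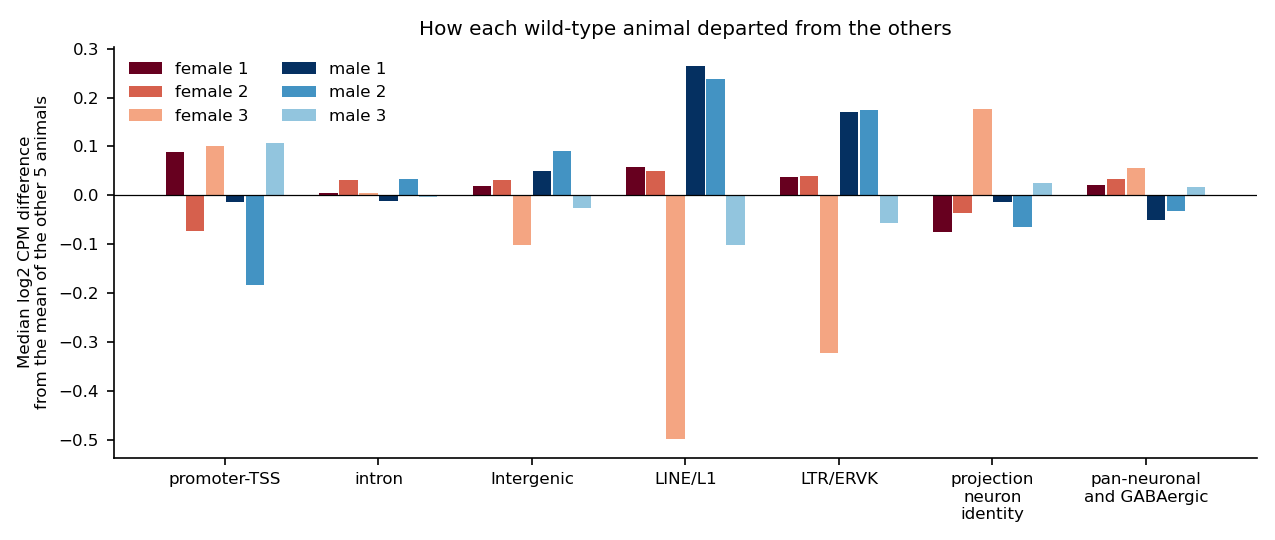
Median over peaks of the log2 CPM difference of each animal from the mean of the other 5, for 3 annotation classes, 2 repeat families and 2 gene lists, with a bar per animal. Female 3 was at -0.50 for L1 and at 0.18 for projection neuron identity genes.

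The test of spread among animals did not separate promoter from intergenic peaks of like depth. Among peaks with a mean of 50 to 100 counts, the median absolute deviation of an animal from the mean of the others was 0.164 ± 0.00767 log2 units over 1826 promoter peaks and 0.188 ± 0.0252 over 6892 intergenic peaks. The difference was -0.0242 ± 0.0289, with p = 0.09375 in an exact two-sided sign-flip permutation test over 6 animals, and -0.0279 with p = 0.03125 in the same exact test when total counts set the library size. Over all tested peaks the median biological coefficient of variation was 12.7% at promoters and 15.7% at intergenic peaks, and among peaks of 50 to 100 counts it was 12.4% and 12.7%. The most variable 1% of autosomal peaks of at least 50 counts, 366 of 36577 by edgeR's tagwise dispersion, had another makeup than the rest. Of these, 256 (69.9%) were intergenic, against 27.8% of all such peaks, and 8 (2.19%) were promoters, against 19.5%. L1 elements were 59 (16.1%), against 2.97%. Female 3 was the animal farthest from the others in 199 of the 366, the high one in 16 of them. With the 366 chosen by the SD of log2 CPM, L1 made up 19.1% with all animals and 2.46% without female 3, and intergenic peaks 65.8% and 48.9%. In female 3, 250 peaks were under 0.5 times the median of the other animals, 81 of them in L1, and 2 were over 2 times it; in the other 5 animals 11 to 58 were under and 7 to 79 over.

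The 10 peaks of largest dispersion had biological coefficients of variation of 53.6% to 111%. The widest was a simple repeat near 1700048O20Rik, with 23.8, 4.14 and 23.7 CPM in females and 80.4, 5.46 and 4.88 in males. Another simple repeat near 4930517M08Rik had 87.6%. Peaks near Eea1, Tyrp1 (2 peaks), Ccnh, Abcb11, 4933402J10Rik and Gad2 shared a pattern, with female 1 highest and male 1 second in all 7. At the Eea1 peak the values were 88.9, 20.5 and 17.9 CPM in females and 52.2, 25.3 and 33.6 in males, and at the Gad2 peak 989, 282 and 256 in females and 435, 273 and 333 in males. The remaining one, an intron peak of Nckap5, had 3.90, 19.5 and 14.8 in females and 5.36, 10.1 and 16.0 in males. In 7 of the 10, then, female 1 was the highest animal.

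Females and males differed at 102 of 140487 tested peaks, nearly all on the sex chromosomes or in simple repeats. Each peak was tested with edgeR's quasi-likelihood test, female over male, with Benjamini-Hochberg adjustment over all tested peaks at 0.05. Females were higher at 23 peaks (0.0164% of those tested) and lower at 79 (0.0562%). The number higher was 10 without male 1 or male 2, 12 without male 3 and 43 without female 3, of which 0, 0, 1 and 19 were autosomal. By chromosome, females were higher at 20 of 2720 X peaks and lower at none, lower at 27 of 115 Y peaks, and on the autosomes higher at 3 and lower at 52 of 137652. No peak of the projection neuron, pathway, interneuron, cortical, pan-neuronal, glial, vascular, housekeeping or activity-regulated lists was called. These lists held 36 to 630 tested peaks each. With 55 of 137652 autosomal peaks called, lists of that size would seldom hold one, so this does not show that their genes lack a sex difference. At an unadjusted p under 0.05 there were 8305 peaks, 5.91% of those tested.

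On the X chromosome, the median peak was 0.30 higher in females on the log2 scale, and 83.8% of the X peaks had a positive value, against a median of -0.01 on the autosomes. The X held 1.86%, 1.81% and 1.79% of counts in females and 1.53%, 1.51% and 1.52% in males. The called peaks lay mainly at long non-coding RNA genes of the X, Xist among them, and at genes known to escape X inactivation. Firre, a long non-coding RNA gene of the X, had 5 called intron peaks. The strongest, at chrX:50602613-50603219, had 64, 41 and 59 counts in females and 2, 8 and 8 in males, with a log2 fold change of 2.96 (SE 0.33) and an adjusted p of 4.68e-08 by edgeR. The Firre promoter peak, with 12.54, 12.997 and 15.02 CPM in females and 11.9, 10.4 and 12.7 in males, was not called (log2 0.21, adjusted p = 0.952 by edgeR). A peak in the overlapping gene model Gm35612 had a log2 of 2.26, and 1 in 4933407K13Rik had 1.76. At Xist, the RNA that coats the inactive X, the promoter peak had 26, 21 and 44 counts in females and 4, 5 and 4 in males (log2 2.54, adjusted p = 2.93e-04 by edgeR), and a peak in its transcript had 62, 53 and 84 in females and 7, 25 and 13 in males. Its neighbour Ftx had 2 called peaks, at 0.93 and 0.83. Among escape genes, the Kdm6a start had 721, 458 and 786 counts in females and 191, 262 and 406 in males (log2 0.99), the helicase gene Ddx3x 0.97 and the initiation factor gene Eif2s3x 0.83. Further called X peaks included those at Lancl3 (1.23), Mir221 (1.05), Snx12 (1.04) and Dipk2b (0.99). The called peaks of smallest count, at Firre (chrX:50600192-50600577) and 4933407K13Rik, were lost when any 1 animal was left out.

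The 18 libraries of the other 3 genotypes were not used in this test, and 20 of the 20 X peaks had the same sign in them. The share of all X peaks with that sign there was not counted. In the wild-type libraries 83.8% of all X peaks had it, so the shared sign alone says little. In 1 of the 20 every female of the 18 libraries was above every male, against 9 of all 2720 X peaks (0.331%). Among these 18, the Q140 library labelled female 2 stood apart. At the 20 X peaks its counts summed to 181 CPM. The sums of its 8 fellow females were 295 to 399, and those of the 9 males 176 to 211. At the Xist promoter it had 0.470 CPM, where the 8 had 1.67 to 4.26 and the males 0.114 to 0.584. At the called Y peaks it had 28.1 CPM, where the 8 had 11.3 to 35.1 and the males 276 to 628. Its X counts thus lay within the range of males and its Y counts within that of females, and the reason was not tested. Without it, every female was above every male in 12 of the 20, against 34 of 2720 (1.25%), a count made after the library was seen to stand apart.

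On the Y chromosome the promoter peaks of Eif2s3y, Ddx3y and Uty were called. Eif2s3y had 0 counts in each of 3 females and 50, 25 and 51 in males, so males were at least 48.6-fold higher, taking a floor of 3 counts over the females. Ddx3y had 0 in each female and 22, 37 and 36 in males, at least 36.6-fold higher in males. Peaks near Kdm5d, Gm20854, Gm20736 and Gm20738 were likewise at 0 in females, with bounds of 30.8, 28.5, 19.3 and 17.7. A repeat near 1700020D14Rik had 1, 1 and 4 counts in females and 185, 454 and 319 in males. Of the 27 called Y peaks, 24 separated every male from every female in the other 18 libraries. How many of all 115 tested Y peaks did so was not counted, so the 24 cannot be set against a share. The called peaks were chosen by the labelled sex, so their counts are no check of it. Over all Y peaks the sexes overlapped, with 0.165%, 0.0724% and 0.0993% of counts in females and 0.200%, 0.152% and 0.119% in males.

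The autosomal peaks called lower in females were mostly short tandem repeats. Of the 52, on 18 chromosomes, 42 were simple repeats, a class that made up 1.86% of tested peaks. Their log2 fold changes ran from -4.62 to -0.99, with a median of -2.58. A few repeat units held most of them. Of 42 tested peaks of GATA-type units, in any phase or strand, 31 were called lower (73.8%), of 18 CCTA-type units 6 (33.3%), and of 51 GACA-type units 3 (5.88%). An AT repeat and 1 of 84 peaks of AGGC-type units made up the rest. The 42 GATA-type peaks summed to 43.8, 40.8 and 34.9 CPM in females and 200, 252 and 157 in males. The 18 CCTA-type peaks summed to 33.5 to 44.9 in females and 83.2 to 111 in males. The sexes did not overlap for either. Both sums include the peaks called lower in females in these same 6 libraries, so this separation is no further evidence. The commonest unit, CA-type with 904 peaks, summed to 3444 to 3643 in females and 3391 to 3743 in males, and GA-type, with 103 peaks, to 623 to 680 in females and 620 to 691 in males, so both overlapped.

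In the 18 other libraries, GATA-type peaks summed to 23.6 to 58.3 CPM in 9 females and 98.8 to 261 in 9 males, again with no overlap. CCTA-type peaks summed to 25.3 to 54.2 in females and 52.4 to 122 in males, which overlapped. Of the 52 peaks, 50 had the same sign in these libraries, where the share of all autosomal peaks with that sign was not counted. In 39 of the 52 every male was above every female there, against 46 of all 137652 autosomal peaks (0.0334%). The Y chromosome of the mouse is known to be rich in GATA and GACA repeats, and several of the Y peaks called here, near 1700020D14Rik and Gm29089, were themselves annotated as GATA- or CCTA-type repeats. Whether reads from Y repeats were placed at autosomal ones was not tested.

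The autosomal peak with the smallest p was an exception to the repeat units. It lay in an ORR1C2 element, a rodent LTR, at chr19:14821061-14821263 and 223 kb from the start of Tle4, and had 6, 1 and 6 counts in females and 64, 124 and 94 in males. Its log2 fold change was -4.62 (SE 0.32, adjusted p = 3.27e-14 by edgeR). A CCTA-type repeat in an intron of Pcca, at chr14:122568843-122569223, had 12, 7 and 7 counts in females and 62, 133 and 91 in males (log2 -3.66, adjusted p = 1.45e-12 by edgeR). A repeat of the same type near Nxpe2 had 15, 13 and 17 counts in females and 106, 120 and 105 in males. GATA-type repeats near Cdh6 and in introns of 4930524B15Rik and Adcy9 had log2 fold changes of -3.87, -3.45 and -3.46. The symbols mark the nearest genes, and at none of them is a change of the gene itself shown. Of the 3 autosomal peaks higher in females, near 4930488B22Rik (1.01), Alg10b (0.87) and Paip2 (1.31), 1 had the same sign in the other 18 libraries and none separated the sexes there, and their number was 0 without female 2, male 1 or male 2, 1 without male 3, 11 without female 1 and 19 without female 3.

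**Figure D5:**
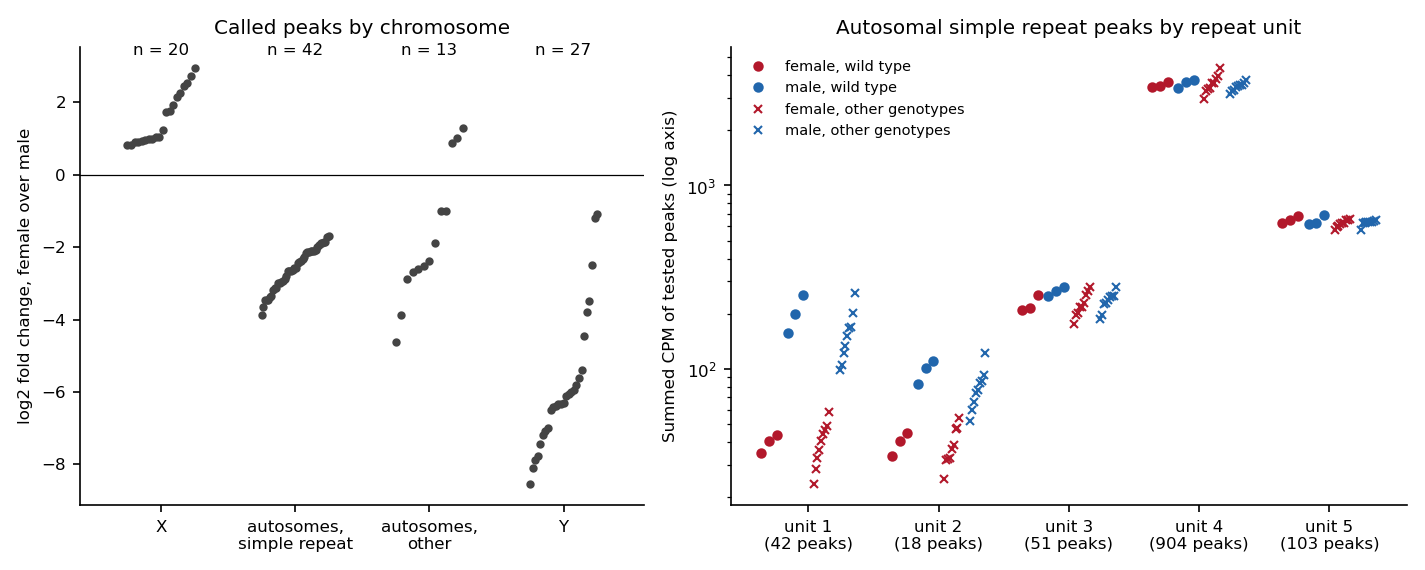
Log2 fold change, female over male, of the 102 called peaks by chromosome (left, a point per peak), and summed CPM of all tested autosomal simple repeat peaks by repeat unit (right, log axis, a point per library, circles for wild-type and crosses for other genotypes). Unit 1 is the GATA type, unit 2 the CCTA type and unit 3 the GACA type. Units 4 and 5 are the dinucleotide types that start with C and with G. For unit 1 the 3 wild-type females had 34.9 to 43.8 CPM and the 3 males 157 to 252. Of its 42 peaks, 31 were called lower in the same females, so that wild-type separation is no further evidence. For units 4 and 5 the sexes overlapped.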

How the data were processed

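ATAC-seq was done on sorted NeuN-positive nuclei, 50000 per sample, with the Nextera kit, per the labels' protocols. The values are raw counts of reads per peak, deposited by the authors in 1 table of 147020 peaks and 24 libraries with the authors' annotation class, distance and gene symbol, on GRCm38. The submitters' processing notes name BWA, SAMtools, Picard, MACS2 and featureCounts, with no versions. The treatment of duplicates, of reads with several matches and of cut sites, and any pooling before peak calling, is not given in the sources used here. Copies of a repeat can share reads, so repeat peaks are uncertain.

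The 6 wild-type libraries, 5128118 to 9263371 counts deep, were analysed alone. Females and males were compared with edgeR 4.0.16 (TMM, filterByExpr with a minimum count of 10, robust quasi-likelihood test, adjusted p of 0.05), which left 140487 peaks, after a test on simulated data. Alternatives were DESeq2 1.42.0, limma 3.58.1, other scalings, no filter, a fit of all 24 libraries and leaving out each animal. The other genotypes were used only to look at the sexes again. Levels are CPM per kb of peak, and log2 values used a prior count of 2. Floors are 3 counts and cover counting error only. Named peaks and genes were the 6 markers, the 4 highest and 2 lowest promoter peaks of each list, the 10 highest peaks, the 10 most dispersed, the genes with most peaks or CPM, the 10 called peaks of largest change in each direction and the 6 autosomal ones of smallest p. Peaks of known X escape genes, the 3 higher autosomal peaks and other called X peaks were named after their values were seen. The members, lists and tests were chosen with earlier results of these data known. Windows, repeat units and the most variable peaks without each animal were added after seeing the data. Of peak symbols, 74.0% were in the RefSeq promoter table. Values of a few genes that these rules name are not reported here.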

Additional observations from a re-analysis of the deposited data

Results flagged for a closer look

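Of 97 quantities examined over the 6 animals, 9 had 1 animal far from the other 5, by Dixon's ratio of that animal's gap to the whole range. Chance alone gives about 1 such quantity in 20. The peak near Col19a1 had 6368 CPM per kb in female 1, against 1894 to 2782 in the others, and the sum of all Col19a1 peaks was 29166 CPM in that animal, against 8713 to 12770. The sum over Gad2 peaks was 3031 CPM in female 1, against 873 to 1386. Intergenic peaks 33.0 and 34.4 kb from the Gad2 start held 1998 and 989 CPM of it. Female 3 had 1063 CPM over the peaks of Rbfox1, against 945 to 982, and 672 CPM over those of Ank3, against 605 to 619. It was also lowest in the median promoter level of endothelial and pericyte genes, at 2.23 CPM per kb against 5.80 to 7.24, and highest in the share of other repeats, at 0.307% of counts against 0.276% to 0.286%. Male 2 had 3006 CPM per kb at the peak near Ddhd1, against 2153 to 2404, and male 1 had 4059 CPM over the peaks of Rn4.5s, against 2872 to 3208.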

How the results depend on the processing

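With the replicate number as a block, 180 peaks differed by sex, 116 of them autosomal, and all 102 of the peaks called without it were among them. Whether the numbers pair the animals is not stated in the labels and was not settled. Same-numbered females and males deviated together with r of 0.02, 0.13 and 0.15, against -0.18 to 0.06 for the other pairs. Female 1 correlated better with male 2, at 0.06, than with male 1. Leaving out 1 animal at a time gave 73 to 118 peaks in all and 36 to 65 on autosomes, with 36 without male 2. Of the 102, 71 to 93 remained called, and none changed sign under any alternative. The 23 higher in females became 49 with the block, 15 with DESeq2, 16 with limma-voom, 10 with all 24 libraries and 10 to 43 without 1 animal. DESeq2 kept 80 of them, limma-voom 82 and the fit of all 24 libraries 71. Counting starts by a distance of at most 1000 bases gave a promoter share of 30.1%, and leaving out animals gave 19.7% to 20.4%. The difference in level between promoter and intergenic peaks was 0.80 to 0.90 without 1 animal, at p = 0.0625, the smallest exact p for 5 animals. The difference in spread had p = 0.03125 (-0.0279, exact test) with total counts as library size, and p = 0.3125 among peaks of 100 to 200 counts. Without division by width the projection neuron list stood at the 68.5 percentile. Among single named peaks, 308 comparisons stayed on their side of the threshold and 30 lost it, mostly at the weaker peaks near Firre, 4933407K13Rik and Paip2, and the cause was not tested. Peaks of few counts limit what can be seen, since the median peak had 26 per library.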
